A study of Homo sapiens with 21 samples.

Results

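The BCL2 family apoptosis regulators followed here are 10 genes, BCL2, BCL2L1, BCL2L2, MCL1, BAX, BAK1, BCL2L11, BBC3, PMAIP1 and BID. They were taken by symbol from a deposited table of 60728 gene identifiers, and all 10 passed the filter on low values that kept 18584 genes for testing. RNA-Seq had been performed on 21 libraries of SK-N-BE(2), a MYCN-amplified neuroblastoma cell line, 72 h after transduction with lentiviral shRNA particles. Control libraries carried a non-silencing shRNA, and 3 labels stand for the silenced ones, each with 2 conditions: shARID1A (shARID1A.2 and shARID1A.4), shARID1B (shARID1B.2 and shARID1B.3) and shARID1A/B (shARID1A/B.2.3 and shARID1A/B.4.2). Each of the 7 conditions has 3 libraries. ARID1A and ARID1B are structural subunits of the BAF chromatin remodelling complex, and the study asked what losing either or both does to the transcriptome. Each silenced condition is 1 shRNA or 1 pair of shRNAs in 1 cell line, the design calls the 3 libraries of a condition biological triplicates, and the p-values measure the spread between these libraries.

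Depth was 27954334 to 41077638 reads per library. Values are the deposited ones, reads on a gene divided by 1 size factor per library, and differences are on the scale of log2(value + 1), tested with limma and Benjamini-Hochberg adjustment over all 18584 genes. A gene is said to rise or fall only where its adjusted p was under 0.05. All 11 noradrenergic neuroblastoma markers were above 50 in Control, with MYCN between 77312 and 426870 in the 21 libraries. Of 10 mesenchymal markers 9 were also above 50, and PRRX1 was at or near 0 (3 at most). PTPRC, at 57.3 to 426, was the only blood cell marker of 4 above 50 in Control, while the endothelial markers PECAM1 and CDH5 did not exceed 13.1. The summed mesenchymal markers, in which VIM weighs most, ranged from 93939 to 95758 in Control, from 50004 to 50215 in libraries labelled shARID1A.4, from 53997 to 54565 in shARID1A/B.2.3 and from 71952 to 95247 in the other 4 conditions. Of the 9 tested, 8 fell and 1 rose in shARID1A.4 (36.6% and 37.0% of all genes) and in shARID1A/B.2.3 (34.0% and 35.2%). In each of the other silenced conditions 5 to 7 fell and 0 to 3 rose (32.0% to 38.2% and 31.6% to 37.9% of all genes). The summed noradrenergic markers, in which MYCN weighs most, ranged from 214604 to 220642 in Control and from 500863 to 519998 in shARID1A.4. They ranged from 305563 to 313166 in shARID1A/B.2.3 and from 142701 to 249111 in the other 4. Of the 11 markers, 4 rose and 4 fell in shARID1A.4 (37.0% and 36.6% of all genes). In shARID1A/B.2.3, 6 rose and 5 fell (35.2% and 34.0%), and in each of the others 1 to 4 rose and 5 to 9 fell (31.6% to 37.9% and 32.0% to 38.2%). The part of such a shift in the results was not tested, and in bulk RNA fewer cells of a type and less RNA per cell cannot be told apart.

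The targeted genes did not follow the labels. ARID1A was 6097, 6374 and 6463 in the Control libraries. It was 2169, 2160 and 2109 in libraries labelled shARID1A.2 and 2289, 2157 and 2284 in those labelled shARID1A.4. It was also low in libraries labelled shARID1B.2 (1962, 1882 and 1916), below all those labelled shARID1A, and shARID1B.3 (2507, 2480 and 2450), above all of them. In contrast, libraries labelled for both genes stayed close to Control, at 5510, 5752 and 5714 for shARID1A/B.2.3 and 5589, 5352 and 5379 for shARID1A/B.4.2. ARID1B was 5793, 5804 and 5791 in Control. It was low in libraries labelled shARID1A.2 (2252, 2249 and 2224), shARID1A.4 (3065, 3110 and 3126), shARID1A/B.2.3 (2540, 2651 and 2607) and shARID1A/B.4.2 (1886, 1881 and 1955). It was 5056, 4913 and 5043 in libraries labelled shARID1B.2 and 6182, 6038 and 6053 in those labelled shARID1B.3. Thus both genes were low under the label shARID1A, ARID1A alone was low under shARID1B, and ARID1B was low, with ARID1A near its Control level, under shARID1A/B. Labels are used as written, and every direction below belongs to the libraries labelled so.

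Log2 fold changes of ARID1A against Control were -1.56 and -1.49 under shARID1A, -1.72 and -1.35 under shARID1B, and -0.16 and -0.21 under shARID1A/B (conditions in the order given above). Those of ARID1B were -1.37 and -0.90, then -0.21 and 0.07, then -1.16 and -1.60. All 12 differences passed the test, although that of ARID1A in libraries labelled shARID1A/B.4.2 did not when libraries were scaled to total reads (-0.03, adjusted p = 0.433) or by the upper quartile (-0.05, adjusted p = 0.124).

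BCL2 family proteins set whether the outer membrane of mitochondria is opened, the step that releases cytochrome c and starts the caspases. Guardians (BCL2, BCL-XL encoded by BCL2L1, BCL-w encoded by BCL2L2, and MCL1) hold the pore-forming effectors BAX and BAK in check, and BH3-only proteins (BIM encoded by BCL2L11, PUMA encoded by BBC3, NOXA encoded by PMAIP1, and BID) occupy the guardians or activate the effectors. NOXA is known to bind MCL1 above all, and neuroblastoma cells are known for high BCL2 and for responding to drugs that occupy it. Transcript levels do not give protein levels, least of all for MCL1, BIM and NOXA, whose proteins turn over quickly.

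RefSeq promoter windows (GRCh38.p14) were found for 8 of the 10 members, with no entry for BCL2L2 and MCL1. These 8 have 13 entries, and the first listed for a gene was used. The 250 bases before the annotated start are shown for PMAIP1, BAK1, BAX and BBC3. Each of these genes rose in libraries labelled shARID1A.4, as did BCL2L1, whose window is not shown. In libraries labelled shARID1A/B.2.3 BBC3 fell, whereas PMAIP1 and BAK1 rose. The windows of PMAIP1, BAK1, BAX and BBC3 lie at chr18:59899746-59899995 (plus strand), chr6:33580277-33580526 (minus), chr19:48954625-48954874 (plus) and chr19:47232668-47232917 (minus), respectively. Capitals mark matches, on either strand, to 7 motifs searched by their letters. These were CACGTG for an E-box, TGACGTCA for a CRE, GGGCGG for a GC box, CCAAT for the box of that name, TATAAA for a core promoter box, TGANTCA for AP-1 and TGTTTAC for FOXO factors.
PMAIP1: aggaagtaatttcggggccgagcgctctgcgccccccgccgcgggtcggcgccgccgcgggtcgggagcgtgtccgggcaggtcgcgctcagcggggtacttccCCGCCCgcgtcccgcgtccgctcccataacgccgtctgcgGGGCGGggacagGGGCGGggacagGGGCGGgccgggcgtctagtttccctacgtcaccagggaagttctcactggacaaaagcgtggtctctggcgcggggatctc
BAK1: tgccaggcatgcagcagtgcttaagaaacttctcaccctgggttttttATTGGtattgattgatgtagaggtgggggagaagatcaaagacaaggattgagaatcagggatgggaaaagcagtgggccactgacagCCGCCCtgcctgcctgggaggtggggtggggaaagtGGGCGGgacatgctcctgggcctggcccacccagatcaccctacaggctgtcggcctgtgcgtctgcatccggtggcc
BAX: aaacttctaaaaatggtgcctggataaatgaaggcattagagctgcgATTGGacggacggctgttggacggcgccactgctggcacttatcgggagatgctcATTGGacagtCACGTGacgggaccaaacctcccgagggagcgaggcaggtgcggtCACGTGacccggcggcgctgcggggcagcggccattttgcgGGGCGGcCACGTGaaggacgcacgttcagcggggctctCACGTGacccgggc
BBC3: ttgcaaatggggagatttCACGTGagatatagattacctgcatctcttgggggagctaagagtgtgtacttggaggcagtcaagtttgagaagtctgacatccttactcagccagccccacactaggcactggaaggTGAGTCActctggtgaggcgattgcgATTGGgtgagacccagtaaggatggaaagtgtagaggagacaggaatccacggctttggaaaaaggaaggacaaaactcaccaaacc

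The BAX window held 4 copies of CACGTG, at 138, 93, 45 and 14 bases before the start, and the BBC3 window held 1 at 232 bases before it. This motif is present in 6.34% of the 35116 stretches of 250 bases before a start in the RefSeq table. The PMAIP1 window held 4 GC boxes and the BAK1 window 2, a motif present in 42.6% of all windows. BBC3 alone among the 4 held an AP-1 match, TGAGTCA, found in 6.57% of all windows. CCAAT, which is in 32.0% of all windows, was read on the reverse strand in BAX, BAK1 and BBC3. No CRE, core promoter box or FOXO letters were in these 4 windows. The window of BCL2L1, not shown, held TATAAA at 208 and 125 bases before the start, letters found in 10.7% of all windows. GC content was 72.8% for PMAIP1, 62.8% for BAX, 58% for BAK1 and 49.2% for BBC3. No 2 matches overlapped. RefSeq and GENCODE 29 place the starts differently. At the GENCODE coordinates given for each member, the end of each of the 4 windows lies inside the gene. Inside it are the BAX copies of CACGTG at 45 and 14, the BAX GC box at 52 and the BBC3 CCAAT match at 87. A match is a run of letters, not a bound site.

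Most members passed the test in each condition, as did most genes. Against Control, 9 of the 10 passed the test in both shARID1A conditions (76.1% of all genes tested in shARID1A.2 and 73.6% in shARID1A.4) and in both shARID1B conditions (65.6% in shARID1B.2 and 63.9% in shARID1B.3). In libraries labelled shARID1A/B.2.3 it was 8 (69.2%), and in those labelled shARID1A/B.4.2 all 10 (71.2%). Higher and lower members numbered 3 and 6 in shARID1A.2, where 37.9% and 38.2% of all genes were higher and lower, 5 and 4 in shARID1A.4 (37.0% and 36.6%), and 1 and 8 in shARID1B.2 (31.6% and 34.0%). They numbered 4 and 5 in shARID1B.3 (31.9% and 32.0%), 3 and 5 in shARID1A/B.2.3 (35.2% and 34.0%), and 5 and 5 in shARID1A/B.4.2 (35.1% and 36.1%). With scaling to total reads or by the upper quartile the numbers were 4 and 5 in shARID1A.2 and 2 and 6 in shARID1B.2, and with these or TMM 5 and 5 in shARID1A/B.2.3. The 3 libraries of a condition did not overlap Control for 8 members in shARID1A.2 (77.7% of all genes), 9 in shARID1A.4 (75.0%), 9 in shARID1B.2 (69.0%), 9 in shARID1B.3 (66.6%), 8 in shARID1A/B.2.3 (71.1%) and 9 in shARID1A/B.4.2 (73.9%). A change of more than 1 on the log2 scale was less common. It was reached by BCL2 and PMAIP1 in libraries labelled shARID1A.2 (24.8% of all genes), by MCL1 in shARID1A.4 (21.4%), by BBC3 and PMAIP1 in shARID1B.2 (12.0%), by BAK1 in shARID1A/B.2.3 (16.1%) and by BCL2 and PMAIP1 in shARID1A/B.4.2 (18.4%). No member reached it in libraries labelled shARID1B.3 (11.8%). At the stricter rule of 1.5 in size with an adjusted p under 0.001, BCL2 and PMAIP1 remained in shARID1A.2 (11.2%) and shARID1A/B.4.2 (6.68%), and PMAIP1 in shARID1B.2 (3.64%), with no member in shARID1A.4 (8.73%), shARID1B.3 (3.55%) or shARID1A/B.2.3 (5.21%). The mean size of change over the 6 conditions put PMAIP1 above 93.8% and BCL2 above 90.4% of all genes tested, and BID above 8.42%.

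**Figure D1:**
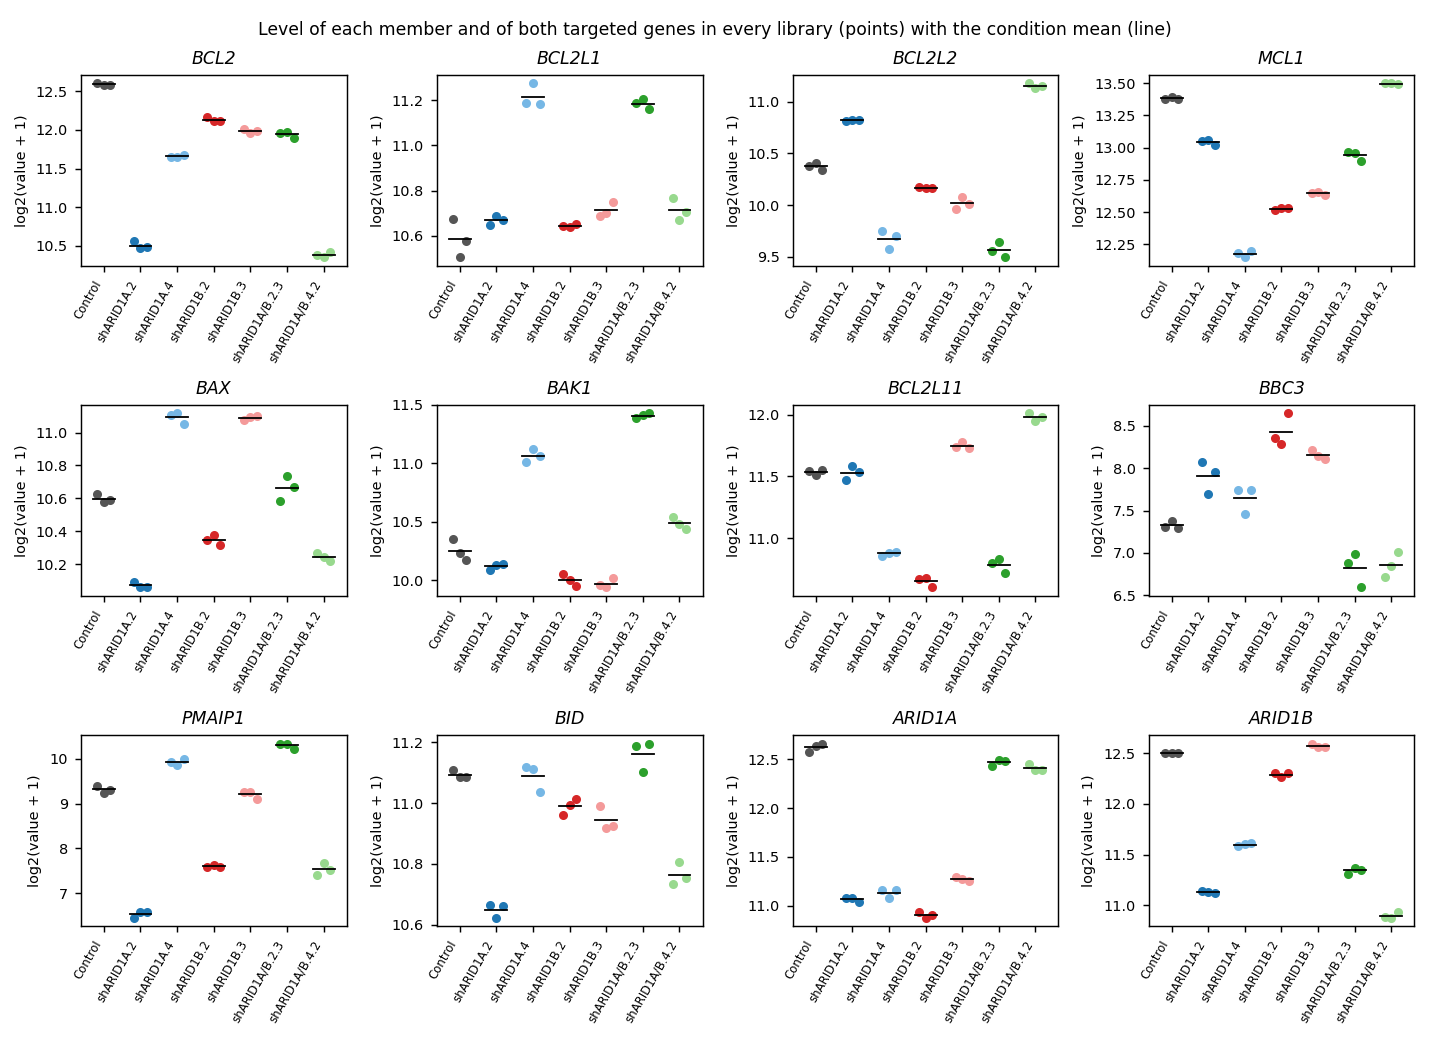
Level of each of the 10 members and of ARID1A and ARID1B, as log2(value + 1) on the vertical axis with a scale of its own in each panel, by condition as labelled on the horizontal axis. Points are the 3 libraries of a condition and lines their mean. BCL2 lies lowest in libraries labelled shARID1A.2 and shARID1A/B.4.2, PMAIP1 spans 6.54 to 10.3 between condition means, and ARID1A is low under the labels shARID1A and shARID1B.

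Among the guardians, BCL2 was lower than Control in all 6 silenced conditions, and the share of all genes that were so was not counted. The gene lies on chromosome 18 from 63123346 to 63320128 (GRCh38, GENCODE 29, minus strand). It was 6216, 6116 and 6144 in Control, against 1512, 1417 and 1428 in libraries labelled shARID1A.2 and 1339, 1307 and 1366 in those labelled shARID1A/B.4.2. These 6 silenced libraries were the lowest of the series. Libraries labelled shARID1A.4 gave 3212, 3199 and 3282, shARID1A/B.2.3 gave 3994, 4032 and 3815, shARID1B.3 gave 4139, 3991 and 4046, and shARID1B.2 gave 4614, 4423 and 4425. No silenced library overlapped Control, and between neighbours in the order of means only shARID1B.3 and shARID1A/B.2.3 overlapped. BCL2 fell by 2.08 (SE 0.029, adjusted p = 2.54e-26) in libraries labelled shARID1A.2, 4.24-fold lower, and by 2.20 (SE 0.029, adjusted p = 1.26e-26) in those labelled shARID1A/B.4.2, 4.60-fold lower. It fell by 0.93 in shARID1A.4, by 0.64 in shARID1A/B.2.3, by 0.60 in shARID1B.3 and by 0.46 in shARID1B.2.

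MCL1, on chromosome 1 from 150574551 to 150579738 (minus strand), encodes the guardian with the shortest-lived protein. It was 10643, 10768 and 10659 in Control. It was 4659, 4543 and 4686 in libraries labelled shARID1A.4, the lowest condition, and 5872, 5905 and 5931 in shARID1B.2. Levels then climbed through shARID1B.3 (6429, 6455 and 6360), shARID1A/B.2.3 (7995, 7972 and 7618) and shARID1A.2 (8492, 8526 and 8301). Libraries labelled shARID1A/B.4.2 (11562, 11571 and 11515) alone lay above Control, and no neighbours in this order overlapped. MCL1 fell by 1.21 in shARID1A.4 (SE 0.020, adjusted p = 1.71e-24), by 0.86 in shARID1B.2, by 0.74 in shARID1B.3, by 0.44 in shARID1A/B.2.3 and by 0.34 in shARID1A.2, and rose by 0.11 in shARID1A/B.4.2 (adjusted p = 3.21e-05). The annotated end of MCL1 overlaps the start of ADAMTSL4-AS1 on the same strand by a few bases.

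BCL2L1, on chromosome 20 from 31664452 to 31723989 (minus strand), encodes BCL-XL from a spliced message that also yields a shorter, pro-apoptotic form, which gene-level values do not separate. It was the guardian that fell in no condition. Control libraries gave 1634, 1453 and 1526, whereas libraries labelled shARID1A.4 gave 2329, 2477 and 2325 and those labelled shARID1A/B.2.3 gave 2334, 2357 and 2290. These 2 conditions overlapped each other and stood above all other libraries, which lay between 1453 and 1740. BCL2L1 rose by 0.63 in shARID1A.4 (SE 0.036, adjusted p = 6.19e-14) and by 0.60 in shARID1A/B.2.3 (adjusted p = 2.11e-13). The remaining differences were 0.13 in shARID1B.3, 0.13 in shARID1A/B.4.2 and 0.08 in shARID1A.2, which passed the test, and 0.06 in shARID1B.2, which did not (adjusted p = 0.151). The call in shARID1A.2 (adjusted p = 0.0405) was lost under 4 other settings, and when Control replicate 2 or 3 or shARID1A.2 replicate 2 or 3 was left out (0.04 to 0.08). That in shARID1B.2 was gained when Control replicate 1 was left out (0.10, adjusted p = 0.0139), under the other 3 scalings and with edgeR.

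BCL2L2, on chromosome 14 from 23298790 to 23311759 (plus strand), encodes BCL-w. It was 1331, 1353 and 1296 in Control, 1798, 1813 and 1816 in libraries labelled shARID1A.2 and 2318, 2248 and 2282 in those labelled shARID1A/B.4.2, the highest condition. It was lower in shARID1B.2 (1156, 1151 and 1146), shARID1B.3 (999, 1084 and 1033), shARID1A.4 (862, 762 and 829) and shARID1A/B.2.3 (754, 798 and 721). Only the last pair overlapped in this order. BCL2L2 rose by 0.45 in shARID1A.2 (adjusted p = 6.38e-10) and by 0.78 in shARID1A/B.4.2 (SE 0.042, adjusted p = 1.55e-14), and fell by 0.70 in shARID1A.4, by 0.81 in shARID1A/B.2.3, by 0.35 in shARID1B.3 and by 0.20 in shARID1B.2. The last call was lost when libraries were scaled to total reads (-0.07, adjusted p = 0.179) or by the upper quartile (-0.09, adjusted p = 0.0765). BCL2L2 overlaps the readthrough gene BCL2L2-PABPN1 on the same strand, so its reads are uncertain. The readthrough gene itself, at a mean of 163 in Control, rose in 4 conditions, among them both in which BCL2L2 rose (0.94 in shARID1A.2 and 1.12 in shARID1A/B.4.2) and both in which it fell most (0.82 in shARID1A.4 and 0.97 in shARID1A/B.2.3).

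Per kilobase of the principal transcript, MCL1 was the most abundant guardian in every condition. It made up 60.4% ± 0.66 (SD, n = 3) of the summed guardian level in Control, 42.8% ± 0.65 in libraries labelled shARID1A.4 and 66.9% ± 0.51 in those labelled shARID1A/B.4.2. BCL2 went from 18.3% ± 0.072 in Control to 5.62% ± 0.20 in shARID1A.2 and 4.08% ± 0.085 in shARID1A/B.4.2. BCL2L1 went from 13.1% ± 0.70 to 33.1% ± 1.2 in shARID1A.4. The summed level was 4501 ± 29.7 normalised reads per kilobase in Control, 2748 ± 4.22 in shARID1A.4 and 4393 ± 32.7 in shARID1A/B.4.2. The sums were not tested, and their order depends on the scaling, since total reads and the upper quartile shift the median of all genes in shARID1A/B.4.2 up by 0.19 and 0.16 on the log2 scale, while shares within a library do not. With the length of all exons in place of the principal transcript, MCL1 made up 65.2%, 47.1% and 69.4%, respectively.

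**Figure D2:**
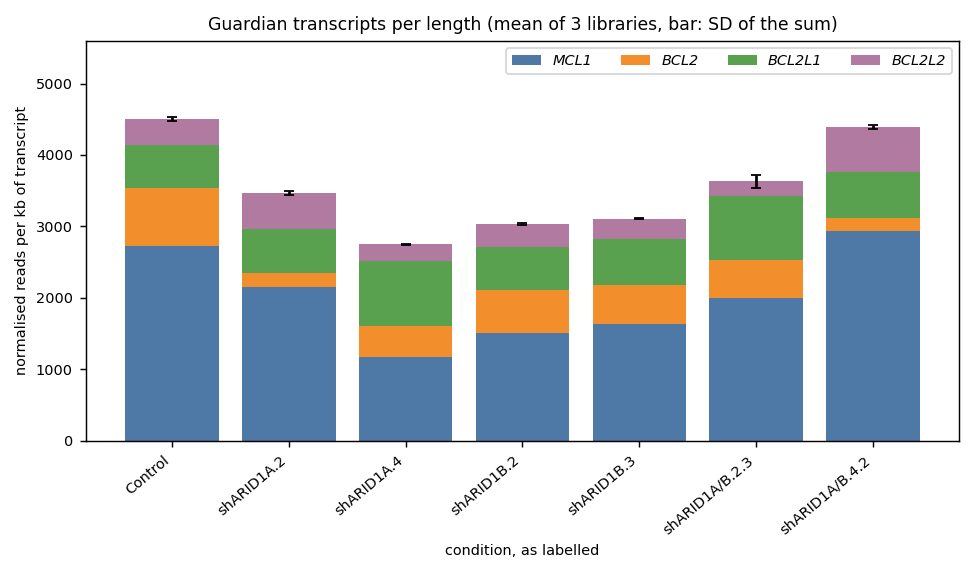
Stacked bars of the 4 guardian transcripts in each condition as labelled, in normalised reads per kilobase of the principal transcript (vertical axis from 0), as the mean of 3 libraries. Error bars are the SD of the sum, which is 4501 in Control and 2748 in libraries labelled shARID1A.4 under the deposited scaling, and the BCL2 share is smallest in libraries labelled shARID1A/B.4.2 (4.08%).

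The effectors BAX and BAK1, which form the pore itself, rose together in libraries labelled shARID1A.4 and fell together in those labelled shARID1A.2 and shARID1B.2. The fall of BAK1 in shARID1A.2 depended on the scaling. They moved in opposite directions in shARID1B.3, where BAX rose and BAK1 fell, and in shARID1A/B.4.2, where BAX fell and BAK1 rose. In shARID1A/B.2.3 BAK1 rose and BAX did not pass. BAX lies on chromosome 19 from 48954815 to 48961798 (plus strand). It was 1583, 1528 and 1539 in Control, 2207, 2218 and 2125 in libraries labelled shARID1A.4 and 2157, 2184 and 2194 in those labelled shARID1B.3. These 2 conditions overlapped each other and were the highest. Values were 1090, 1071 and 1067 in shARID1A.2, 1235, 1212 and 1190.4 in shARID1A/B.4.2, and 1304, 1330.2 and 1277 in shARID1B.2. BAX rose by 0.49 in both of the former (SE 0.034), and fell by 0.53 in shARID1A.2, by 0.35 in shARID1A/B.4.2 and by 0.25 in shARID1B.2. In shARID1A/B.2.3 (1535, 1705 and 1631) the difference of 0.07 did not pass (adjusted p = 0.0854), and it did without replicate 1 of that condition (0.11, adjusted p = 0.00761) and under all 3 other scalings of the libraries.

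BAK1 lies on chromosome 6 from 33572547 to 33580293 (minus strand). It was 1304, 1199 and 1154 in Control, 2683, 2720 and 2753 in libraries labelled shARID1A/B.2.3 and 2066, 2227 and 2133 in those labelled shARID1A.4. These 2 conditions stood above all the others. Libraries labelled shARID1A/B.4.2 gave 1488, 1431 and 1384, above Control without overlap. Those labelled shARID1A.2 (1086, 1117 and 1127), shARID1B.2 (1058, 1025 and 988) and shARID1B.3 (991, 979 and 1038) lay below it. BAK1 rose by 1.16 in shARID1A/B.2.3 (SE 0.041, adjusted p = 4.88e-18), by 0.81 in shARID1A.4 and by 0.24 in shARID1A/B.4.2. It fell by 0.28 in shARID1B.3, by 0.25 in shARID1B.2 and by 0.13 in shARID1A.2 (adjusted p = 0.00554). The last difference was 0.04 with scaling to total reads and 0.05 with the upper quartile, neither passing the test, and it was lost without Control replicate 1 (-0.08, adjusted p = 0.0695).

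Among the BH3-only genes, PMAIP1 varied most of all 10 members. PMAIP1 encodes NOXA and lies on chromosome 18 from 59899948 to 59904306 (plus strand), downstream of the GC boxes shown above. It was 675, 602 and 636 in Control. Libraries labelled shARID1A.2 gave 86.4, 94.8 and 94.7, those labelled shARID1A/B.4.2 gave 169, 203 and 183, and those labelled shARID1B.2 gave 191, 198 and 190.3. These 9 libraries were far below the rest, the last 2 conditions overlapping each other. Libraries labelled shARID1A/B.2.3 gave 1295, 1294 and 1189, those labelled shARID1A.4 gave 972, 935 and 1027, and those labelled shARID1B.3 gave 608, 613 and 553, which overlapped Control. PMAIP1 was 6.87-fold lower in shARID1A.2 (log2 fold change -2.78, SE 0.067, adjusted p = 1.31e-21), 3.44-fold lower in shARID1A/B.4.2 (-1.78) and 3.29-fold lower in shARID1B.2 (-1.72). It was 1.97-fold higher in shARID1A/B.2.3 (0.98, adjusted p = 2.34e-12) and 1.53-fold higher in shARID1A.4 (0.62, adjusted p = 1.13e-08). In shARID1B.3 the difference of -0.11 (95% confidence interval -0.25 to 0.03) did not pass (adjusted p = 0.164). The rise in shARID1A/B.2.3 exceeded 1 without Control replicate 1 or without replicate 3 of that condition (1.02 in each case).

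BCL2L11, on chromosome 2 from 111119378 to 111168447 (plus strand), encodes BIM. It was 2993, 2920 and 3007 in Control and 2837, 3071 and 2972 in libraries labelled shARID1A.2, which overlapped. It was 1857, 1890 and 1900 in shARID1A.4, 1785, 1819 and 1682 in shARID1A/B.2.3, and 1632, 1638 and 1553 in shARID1B.2. Libraries labelled shARID1B.3 (3412, 3509 and 3398) and shARID1A/B.4.2 (4123, 3956 and 4047) lay above Control. BCL2L11 fell by 0.89 in shARID1B.2 (SE 0.032, adjusted p = 1.29e-17), by 0.76 in shARID1A/B.2.3 and by 0.66 in shARID1A.4, and rose by 0.44 in shARID1A/B.4.2 and by 0.21 in shARID1B.3. The difference in shARID1A.2 was -0.01 (95% confidence interval -0.07 to 0.06). With scaling to total reads or by the upper quartile it became 0.16 (adjusted p = 5.62e-05) and 0.18 (adjusted p = 2.30e-05). The opposite strand carries MIR4435-2HG, and the strand setting of the counting is not given in the sources used here.

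BBC3, on chromosome 19 from 47220822 to 47232766 (minus strand), encodes PUMA and had the lowest values of the members in Control. It was 157, 165 and 156 in Control. It was above this in libraries labelled shARID1A.2 (268, 206 and 247), shARID1A.4 (213, 175 and 213), shARID1B.2 (327, 310.2 and 400.2) and shARID1B.3 (297, 283 and 275). It was below it in libraries labelled shARID1A/B.2.3 (116, 126 and 95.3) and shARID1A/B.4.2 (104, 114 and 127). No silenced library overlapped Control. The 4 conditions in which BBC3 was higher were those with ARID1A low. The 2 in which it was lower were those with ARID1B low and ARID1A near Control. The share of all genes with this pattern was not counted, and a part of ARID1A in it was not tested. BBC3 rose by 1.11 in shARID1B.2 (SE 0.12, adjusted p = 8.72e-09), by 0.83 in shARID1B.3, by 0.58 in shARID1A.2 and by 0.32 in shARID1A.4 (adjusted p = 0.0164), and fell by 0.51 in shARID1A/B.2.3 and by 0.47 in shARID1A/B.4.2. Without replicate 3 of shARID1B.2 its rise there was 0.996. The rise in shARID1A.4 was 0.27 without replicate 1 or 3 of that condition and did not pass in either case (adjusted p = 0.0673 and 0.0669).

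BID, on chromosome 22 from 17734138 to 17774770 (minus strand), encodes the protein that caspase-8 cleaves to link death receptors to mitochondria, and varied least. Its level was 2172 to 2208 in Control and 1576 to 1622 in libraries labelled shARID1A.2, the lowest condition. BID fell by 0.44 in shARID1A.2 (SE 0.032, adjusted p = 3.58e-12), by 0.33 in shARID1A/B.4.2, by 0.15 in shARID1B.3 and by 0.10 in shARID1B.2. The last of these was 0.03 with scaling to total reads and 0.01 with the upper quartile, and did not pass in either. Differences of 0.07 in shARID1A/B.2.3 (adjusted p = 0.0595) and of -0.0044 in shARID1A.4 (adjusted p = 0.907) did not pass. The former did without replicate 2 of that condition (0.10, adjusted p = 0.0124) and under the other 3 scalings.

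**Figure D3:**
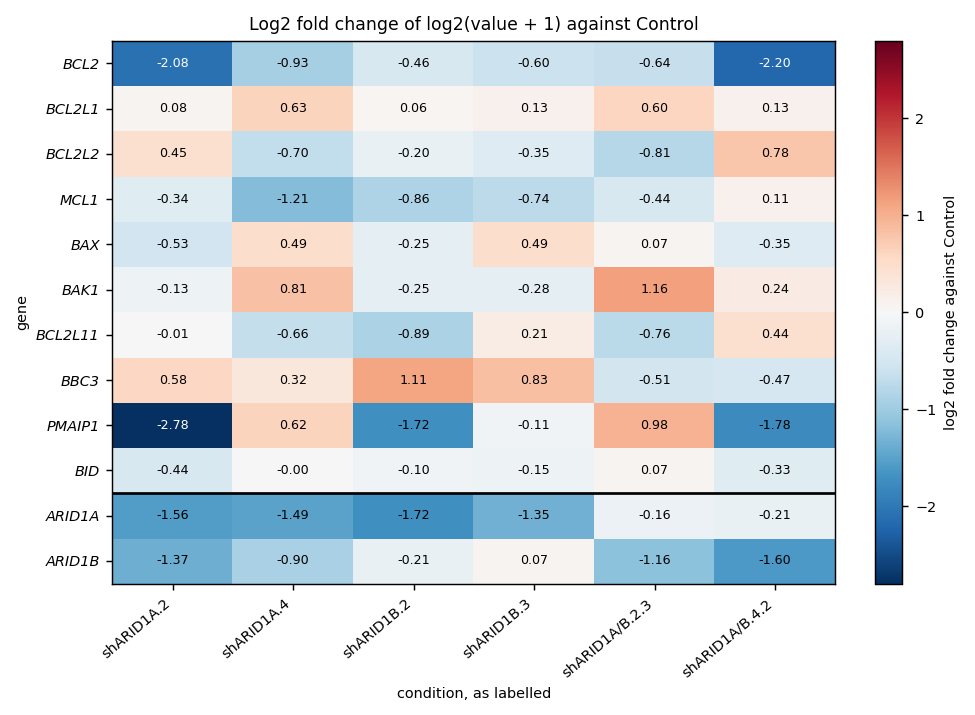
Log2 fold change against Control of the 10 members (rows above the line) and of ARID1A and ARID1B (rows below it) in the 6 silenced conditions as labelled (columns), with the value printed in each cell and colour from blue (lower) to red (higher). PMAIP1 runs from -2.78 to 0.98, BCL2 is below 0 in every column, and BBC3 is above 0 under the labels shARID1A and shARID1B and below 0 under shARID1A/B. Small values of BAK1, BCL2L11 and BID change sign with the scaling, as stated for each gene.

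Since 2 conditions share each label, the members were compared between them without the Control libraries. Libraries labelled shARID1A.4 and shARID1A.2 differed in all 10 members (75.8% of all genes tested), and in 4 by more than 1 on the log2 scale (23.9% of all genes). PMAIP1 was 10.5-fold higher in shARID1A.4 than in shARID1A.2 (3.40, SE 0.067, adjusted p = 2.38e-23). BCL2 was also higher, by 1.15, and BAX by 1.02, whereas BCL2L2 was lower, at -1.15. The call of BBC3 (-0.26, adjusted p = 0.0464) was lost with the replicate number as a block (adjusted p = 0.0509) and without any 1 of 10 libraries, at -0.17 without shARID1A.4 replicate 2 and -0.18 without shARID1A.2 replicate 1. Libraries labelled shARID1A/B.4.2 and shARID1A/B.2.3 differed in 9 members (74.9%), again with 4 past 1 (22.3%). PMAIP1 fell by 2.76 (SE 0.067, adjusted p = 1.65e-21) from shARID1A/B.2.3 to shARID1A/B.4.2, or 6.79-fold, and BCL2 fell by 1.56. BCL2L2 was higher by 1.59 and BCL2L11 by 1.20. BBC3 was the member that did not differ there (0.04, 95% confidence interval -0.20 to 0.28).

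Libraries labelled shARID1B.3 and shARID1B.2 differed in 7 members (66.0%), 4 higher and 3 lower (3 and 5 with scaling to total reads), and 2 of them by more than 1 (13.7%). PMAIP1 was 3.05-fold higher in shARID1B.3 (1.61, SE 0.067) and BCL2L11 2.14-fold higher (1.10, SE 0.032). The other 5 differences that passed were 0.74 for BAX, 0.12 for MCL1, -0.14 for BCL2, -0.15 for BCL2L2 and -0.27 for BBC3, the last of which was lost without any 1 of 5 libraries (-0.16 without shARID1B.2 replicate 3). Differences of BCL2L1 (0.07, 95% confidence interval -0.01 to 0.14), BAK1 (-0.03, -0.12 to 0.06) and BID (-0.04, -0.11 to 0.02) did not pass. With scaling to total reads the difference of MCL1 was lost (0.01, adjusted p = 0.655), while those of BAK1 (-0.14, adjusted p = 0.00311) and BID (-0.15, adjusted p = 0.000219) passed, as did that of BID with the upper quartile (-0.10, adjusted p = 0.00598). The median size of difference between the 2 conditions was 0.907 over the members and 0.526 over all genes for shARID1A, 0.739 and 0.508 for shARID1A/B, and 0.147 and 0.375 for shARID1B.

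Members that passed against Control in opposite directions under 1 label were BAK1, PMAIP1, BAX and BCL2L2 for shARID1A (17.1% of all genes did so), BCL2L11 and BAX for shARID1B (14.5%), and MCL1, BCL2L11, PMAIP1 and BCL2L2 for shARID1A/B (18.5%). BAK1 left this group with scaling to total reads or by the upper quartile. In the same direction, 4 members passed under shARID1A (43.1% of all genes), 6 under shARID1B (33.5%) and 4 under shARID1A/B (35.4%). BCL2 fell in both conditions of every label. BBC3 was the only other member that passed in the same direction in both conditions of each label, higher under shARID1A and shARID1B and lower under shARID1A/B. The share of all genes that passed in 1 direction within each of the 3 labels was not counted. With the other 3 scalings or edgeR, BCL2L1 passed in shARID1B.2 too and was then higher in all 6 conditions.

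**Figure D4:**
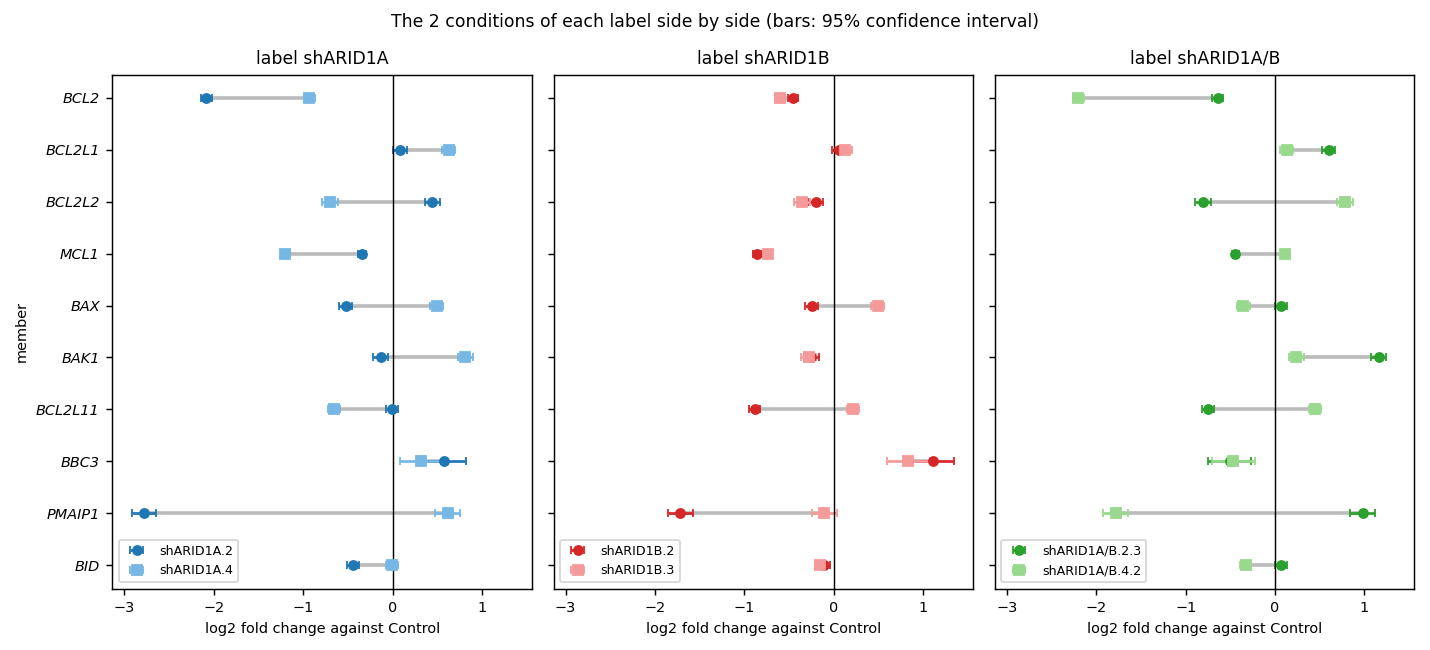
Log2 fold change against Control (horizontal axis) of each member in the 2 conditions that share a label, 1 panel per label, with 95% confidence intervals as bars and a grey line joining the pair. The widest pairs are those of PMAIP1, with differences of 3.40 under shARID1A and -2.76 under shARID1A/B, and all differences but those of PMAIP1, BCL2L11 and BAX are -0.27 to 0.12 under shARID1B.

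Between labels, the mean of 2 conditions was set against the mean of 2 others. Of the 10 members 8 differed between shARID1A and shARID1B (67.3% of all genes), 9 between shARID1A and shARID1A/B (59.2%) and 9 between shARID1A/B and shARID1B (70.2%). These p-values measure the spread between libraries and leave out the difference between the 2 conditions of a label. PMAIP1, for instance, passed between shARID1A and shARID1B at -0.17, while the 2 shARID1A conditions differed by 3.40. BBC3 was lower under shARID1A/B than under shARID1B by 1.46 (SE 0.082, adjusted p = 4.37e-14), the only member past 1 in these 3 comparisons (8.03% of all genes in this one, and 6.03% and 3.62% in the other two). It was higher under shARID1A than under shARID1A/B by 0.94 (adjusted p = 4.85e-10), and lower under shARID1A than under shARID1B by 0.52 (adjusted p = 5.15e-06). It was also the only member whose 6 libraries under shARID1A did not overlap the 6 under shARID1A/B (7.93% of all genes). Between shARID1A and shARID1B the libraries were apart for 3 members, BCL2, BAK1 and BBC3 (14.4%). BCL2 was lower than under shARID1B by 0.98 under shARID1A and by 0.89 under shARID1A/B, although the 2 conditions in each of these means differed by more than 1. MCL1 was higher under shARID1A/B than under shARID1B by 0.63. Its libraries did not overlap between these 2 labels, nor did those of BAK1 (higher by 0.96) and BBC3 (17.7% of all genes). Between shARID1A and shARID1B the mean difference of MCL1 did not pass (0.02, 95% confidence interval -0.01 to 0.05). With scaling by the upper quartile or to total reads that last difference passed at 0.07 and 0.04. It averages shARID1A.2, which lay above both shARID1B conditions in MCL1, and shARID1A.4, which lay below both.

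Libraries labelled shARID1A.2 and shARID1A/B.4.2 had similar values for several members, as did those labelled shARID1A.4 and shARID1A/B.2.3, and these 2 comparisons were added after the values had been seen. Members were still different in most cases, with 9 of 10 passing in the former (53.5% of all genes) and 8 of 10 in the latter (55.5%). The median size of difference was larger over the members than over all genes in both, at 0.352 and 0.244 in the former and 0.316 and 0.249 in the latter. BCL2 differed by 0.12 between shARID1A.2 and shARID1A/B.4.2 (95% confidence interval 0.06 to 0.18) and PMAIP1 by -0.999 (-1.14 to -0.86). MCL1 and BCL2L11 differed there by -0.45 each, BAK1 by -0.37, BCL2L2 by -0.34, BAX by -0.17 and BID by -0.11. BBC3 differed by 1.05, the only member past 1 (5.13% of all genes, and 6.66% in the other comparison). Between shARID1A.4 and shARID1A/B.2.3, MCL1 differed by -0.76, BBC3 by 0.83, BAX by 0.43, PMAIP1 by -0.36 and BAK1 by -0.34. The calls of BCL2L2 (0.11) and BCL2L11 (0.10) there were lost when a single library was left out, at 0.07 without shARID1A.4 replicate 1 and 0.06 without shARID1A/B.2.3 replicate 3. BCL2L1 passed in neither comparison (-0.04, 95% confidence interval -0.12 to 0.03, and 0.03, -0.05 to 0.11).

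Of 12 other genes of the family listed, 9 were tested, and those that rose outnumbered those that fell in all 6 conditions, with list medians of 0.24 to 0.70 beside medians of all genes of 0.01 to 0.02. Some of these medians rest on genes that did not pass or were low. That in shARID1B.3 (0.24) was BCL2L10, at a mean of 1.87 there (adjusted p = 0.636). That in shARID1B.2 (0.42) was BCL2L2-PABPN1 (adjusted p = 0.0702), and that in shARID1A.4 (0.65) was BOK, at a mean of 37.6. BCL2L13, which encodes a mitophagy receptor, rose in all 6 conditions, by 0.29 in shARID1A/B.4.2 to 1.11 in shARID1A.4, and BMF, which encodes a BH3-only protein tied to the cytoskeleton, rose in all 6, by 0.12 to 1.40, most in shARID1B.2. HRK, a BH3-only gene of neurons, fell by 1.47 in shARID1B.2 and by 1.09 in shARID1B.3 and rose in the other 4 conditions, by 1.49 in shARID1A/B.4.2 and by 0.32 to 0.87 in the rest. BAD, a BH3-only gene controlled by growth factor signalling, rose by 0.63 in shARID1A.2 and in shARID1A/B.4.2 and by 0.25 in shARID1B.2, and fell by 0.37 in shARID1B.3 and by 0.20 in shARID1A.4. BOK, an effector-like gene at 12.3 to 66.7 in all libraries, rose by 1.35 in shARID1A/B.2.3 and by 0.65 in shARID1A.4 and fell by 0.79 in shARID1A.2. BCL2L10, a guardian at a mean of 1.48 in Control, rose in 4 conditions, most in shARID1A.4 (2.81) and shARID1A/B.2.3 (2.43), to means of 16.3 and 12.1. BCL2L12 rose by 0.39 in shARID1A.4 and by 0.35 in shARID1B.3 and fell by 0.31 in shARID1A.2, and BCL2L15, at means of 9.64 to 17.4, passed in no condition. Counts in the list were 7 higher and 1 lower in shARID1A.4 (37.0% and 36.6% of all genes), 6 and 0 in shARID1A/B.2.3 (35.2% and 34.0%) and in shARID1A/B.4.2 (35.1% and 36.1%), 5 and 2 in shARID1A.2 (37.9% and 38.2%), 4 and 1 in shARID1B.2 (31.6% and 34.0%), and 3 and 2 in shARID1B.3 (31.9% and 32.0%).

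Downstream of the mitochondria, 14 genes of the apoptosome, the caspases and their inhibitors were tested, and 6 to 10 of them fell in a condition while 1 to 5 rose, where 32.0% to 38.2% of all genes fell and 31.6% to 37.9% rose. The list median was -0.30 in shARID1A.2, -0.37 in shARID1A.4, -0.29 in shARID1B.2, -0.07 in shARID1B.3, -0.21 in shARID1A/B.2.3 and -0.27 in shARID1A/B.4.2, beside medians of all genes of 0.01 to 0.02. APAF1, the scaffold of the apoptosome, fell in all 6 conditions, from 0.27 in shARID1B.2 to 1.85 in shARID1A.2.

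In the death receptor pathway 10 of 12 genes were tested. Of these, 8 fell and 1 rose in libraries labelled shARID1A.2 (median -0.66, 38.2% and 37.9% of all genes). In shARID1A/B.4.2, 7 fell and 1 rose (median -0.61, 36.1% and 35.1%), where the median of all genes was 0.02 as in shARID1A.2. Against this, 2 fell and 5 rose in shARID1A.4 (median 0.03, 36.6% and 37.0%), and 1 fell and 4 rose in shARID1A/B.2.3 (median 0.08, 34.0% and 35.2%). In shARID1B.2, 5 fell and 2 rose (median -0.31, 34.0% and 31.6% of all genes), and in shARID1B.3, 2 fell and 3 rose (median 0.01, 32.0% and 31.9%). CASP8, the initiator caspase that cleaves BID, fell (-1.48 in shARID1A.2, -1.61 in shARID1A/B.4.2 and -0.996 in shARID1B.2) and rose by 0.74 in shARID1A.4 and by 0.63 in shARID1B.3. TNFRSF1A, the receptor of TNF, ranged from -1.48 in shARID1A/B.4.2 to 1.15 in shARID1A.4. CASP10 fell by 2.16 in shARID1A.4, by 1.67 in shARID1B.3 and by 0.71 to 0.99 in 3 others, and its difference in shARID1B.2 was -0.49 (adjusted p = 0.0970).

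Of 12 genes for factors known to act on BH3-only genes, 8 rose and 3 fell in libraries labelled shARID1A/B.2.3 (median 0.36), 5 rose and 6 fell in shARID1A.4 (-0.10), 5 and 5 in shARID1B.3 (-0.18), 4 and 8 in shARID1A.2 (-0.54), 4 and 7 in shARID1A/B.4.2 (-0.21), and 2 and 9 in shARID1B.2 (-0.52), where 31.6% to 37.9% of all genes rose and 32.0% to 38.2% fell in a condition. DDIT3, which encodes the stress factor CHOP, rose by 2.41 in shARID1A.4, by 1.46 in shARID1B.3, by 1.44 in shARID1A/B.2.3, by 0.47 in shARID1A/B.4.2 and by 0.39 in shARID1A.2. TRIB3, a target of the same stress pathway, rose by 1.77 in shARID1A.4, by 1.70 in shARID1A/B.2.3 and by 0.98 in shARID1B.3, and fell by 0.20 to 0.54 in the other 3. MYC, at means of 14.3 to 65.6 in these MYCN-amplified cells, fell in 4 conditions, from -0.63 in shARID1A.4 to -1.302 in shARID1A.2, and rose by 0.86 in shARID1A/B.2.3.

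Among 11 genes listed as partners at the outer mitochondrial membrane, 4 to 8 fell and 2 to 6 rose in a condition (32.0% to 38.2% and 31.6% to 37.9% of all genes), with medians from -0.40 in shARID1A.2 to 0.14 in shARID1A.4. VDAC1, the main channel of that membrane and a known partner of BCL2 proteins, went from a mean of 17282 in Control to 4617 in shARID1A.4 and 3436 in shARID1A/B.2.3, differences of -1.90 and -2.33, and was 13884 to 20073 in the other 4 conditions. BNIP3L, a mitophagy receptor with a BH3-like region, fell by 1.74 and 1.91 in the same pair of conditions and by 0.31 to 0.91 in 3 others, and rose by 0.21 in shARID1B.2. OPA1, counted in this list although it shapes the inner membrane, fell in 5 conditions, by 0.08 to 0.82, and was at -0.05 in shARID1B.3 (adjusted p = 0.101). Of 8 genes for the turnover of MCL1, BIM and NOXA proteins, 6 fell and 1 rose in shARID1A.2 (median -0.35), 5 fell and 1 rose in shARID1B.2 (-0.34) and in shARID1A/B.4.2 (-0.25), 4 fell and 2 rose in shARID1B.3 (-0.15), 3 fell and 4 rose in shARID1A.4 (0.07), and 2 fell and 4 rose in shARID1A/B.2.3 (0.09), beside the same shares of all genes. DUSP6, a phosphatase of ERK, the kinase that marks BIM for degradation, fell in all 6 conditions by 0.62 to 2.13. BTRC, a ubiquitin ligase subunit, rose by 0.92 in shARID1A.4 and by 0.80 in shARID1A/B.2.3, and BAG3, a co-chaperone, fell by 1.19 in shARID1A.2 and by 0.85 in shARID1A/B.4.2.

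**Figure D5:**
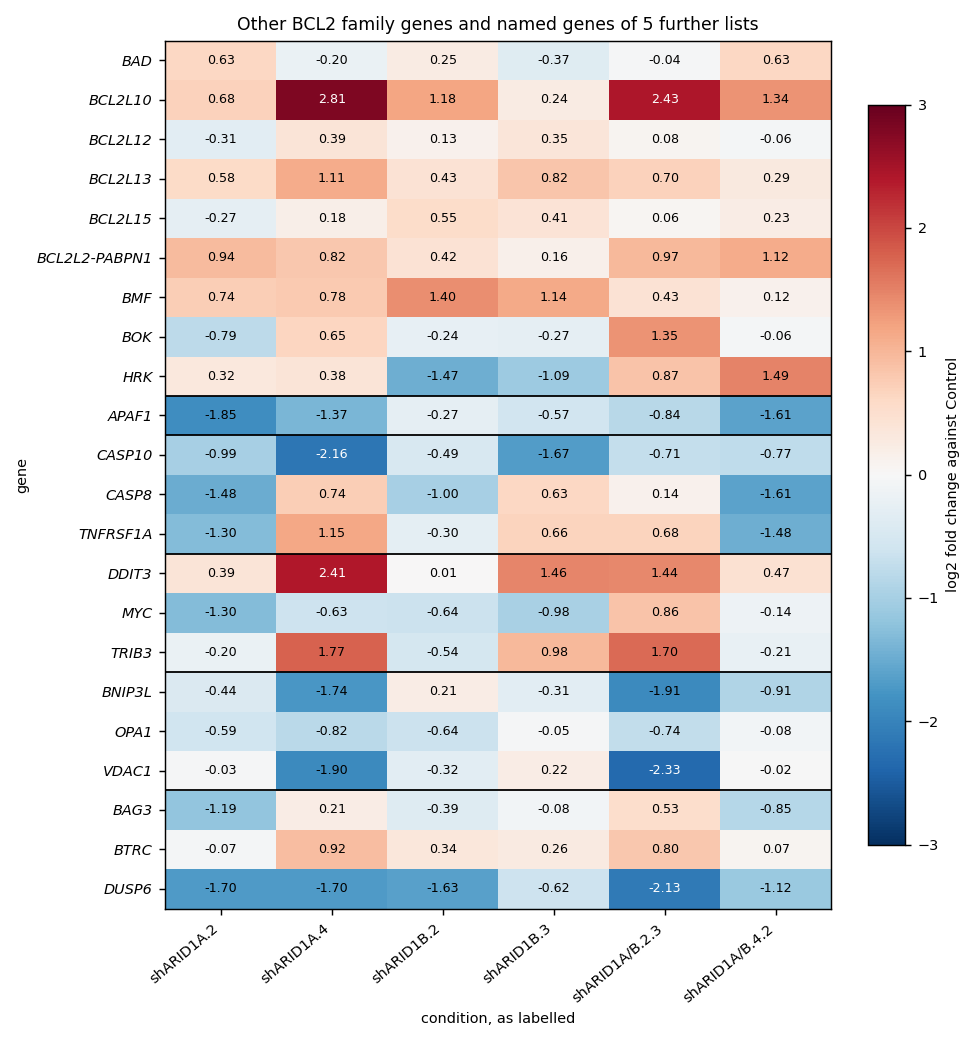
Log2 fold change against Control of the 9 tested genes of the wider family and of 13 named genes from 5 further lists (rows, lists separated by lines) in the 6 silenced conditions as labelled (columns), with values in the cells and colour from blue (lower) to red (higher). APAF1 and DUSP6 are below 0 in every column, VDAC1 is lowest in libraries labelled shARID1A.4 (-1.90) and shARID1A/B.2.3 (-2.33), and BCL2L10 reaches 2.81 in libraries labelled shARID1A.4.

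The member with the largest mean change in each role was compared with 13675 genes of at least 50 in mean value, by the root mean square difference of their centred log2 means over the 7 conditions. The genes closest to BCL2 were NEGR1 (0.14), KIAA1549 (0.18) and MAGI1 (0.19). The genes closest to BAK1 were TANGO2 (0.09), NOX4 (0.12) and NPL (0.13). Those closest to PMAIP1 were LRRC4 (0.26), RIMS3 (0.29) and SH3TC1 (0.31). Among the other members, the nearest to BAK1 was BCL2L1 (0.31, rank 442), the nearest to BCL2 was BID (0.64, rank 2016), and the nearest to PMAIP1 was BCL2 (0.99, rank 1190). A gene with the same level in all conditions would lie at 0.52 from BAK1, 0.78 from BCL2 and 1.31 from PMAIP1.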

How the data were processed

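RNA-Seq was from TruSeq stranded mRNA libraries of biological triplicates, 3 per condition, read on a NovaSeq instrument. Per the labels, the authors' tools include STAR 2.5.3a, RSEM 1.3.0 and DESeq2 1.26.0 with GRCh38, in roles that are not given in the sources used here. The deposited unit is a signal per gene and library, reads divided by a size factor (0.841 to 1.295). Whole reads were recovered for 100% of values within 0.05 read. Files holding the authors' fold changes and p-values for the 3 labels against the control were left unused.

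All 21 libraries, grouped by label, were fitted in 1 limma (3.58.1) model with a trend on log2(value + 1), after edgeR's (4.0.16) filterByExpr filter on the recovered reads, in R 4.3.3. The pseudocount understates the change of low genes. Each condition was compared with Control, with the other condition of its label, and labels with each other. Steps were tested on simulated data. Alternatives were other filters, pseudocounts, scalings and tests (edgeR, DESeq2 1.42.0), a replicate block and leaving out each library. Coordinates are from GENCODE 29, in which 58541 of 60728 identifiers were found without version. Promoters are from RefSeq.

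The members, gene lists and tests were chosen with earlier results of these data known. All members are named, with every tested gene of the wider family. Of each further list, up to 3 genes are named that had the largest mean change among those passing in at least 4 of 6 conditions. Some genes and 1 of the lists are not reported here. For likeness the 3 closest genes are named.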

Additional observations from a re-analysis of the deposited data

Results flagged for a closer look

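Members that passed the test against Control in opposite directions in the 2 conditions of 1 label were looked at again. Under the label shARID1A, shARID1A.4 exceeded shARID1A.2 by 0.947 for BAK1, by 3.397 for PMAIP1 and by 1.02 for BAX on the log2 scale, and differed by -1.146 for BCL2L2. Under shARID1B, shARID1B.3 exceeded shARID1B.2 by 1.097 for BCL2L11 and by 0.740 for BAX. Under shARID1A/B, shARID1A/B.4.2 exceeded shARID1A/B.2.3 by 0.555 for MCL1, by 1.198 for BCL2L11 and by 1.591 for BCL2L2, and differed by -2.763 for PMAIP1. The direction of each difference follows from the way the members were picked, on either side of the same Control libraries, so the sizes are a description. The shares of all genes that moved in opposite directions under 1 label were 17.1%, 14.5% and 18.5%, respectively. Groups of 3 libraries are too small for a test of single outlying libraries.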

How the results depend on the processing

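Each result was recomputed with other filters, pseudocounts, scalings, models and tests. Of the 181 results, 2112 recomputed values kept their direction and side of the threshold, 19 lost the threshold, 19 gained it, 4 counts moved by over 1.5 times and 18 values turned sign. With 1 library left out, the numbers were 3751, 27, 6, 3 and 14. Scaling to total reads shifted the median of all genes by 0.17 in shARID1A.2, 0.14 in shARID1B.2 and 0.19 in shARID1A/B.4.2, and the upper quartile by 0.18, 0.12 and 0.16, so differences of this size depend on the scaling. The share of higher calls among members then went from 33.3% to 44.4% in shARID1A.2 and from 11.1% to 25.0% in shARID1B.2 under both, from 3 of 8 to 5 of 10 in shARID1A/B.2.3 under both and under TMM, and from 57.1% to 37.5% between the shARID1B conditions under total reads. Members past 1 in shARID1A/B.2.3 numbered 2 with total reads, the upper quartile or edgeR, against 1, and 1 to 2 with a library left out. They numbered 1 to 2 in shARID1B.2 with a library left out, and 1 between the shARID1B conditions with total reads, against 2. ARID1A in shARID1A/B.4.2 was -0.027 with total reads and -0.052 with the upper quartile, not passing.

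Values that turned sign were small. With total reads and the upper quartile, respectively, these were BAK1 (0.038 and 0.049) and BCL2L11 (0.16 and 0.18) in shARID1A.2, BID in shARID1A.4 (0.017 and 0.081) and shARID1B.2 (0.032 and 0.014), and BID between shARID1A/B and shARID1B (0.024 and 0.025). BCL2L11 in shARID1A.2 was 0.013 with TMM and 0.012 with edgeR, BID in shARID1A.4 0.015 with both, and BCL2L11 between shARID1A and shARID1B -0.00237 and -0.00236. BCL2L1 was -0.041 between the shARID1B conditions with total reads, and 0.0084 between shARID1A and shARID1A/B with the upper quartile. With a library left out, the range was -0.077 to 0.12 for BBC3 between the shARID1A/B conditions, -0.034 to 0.023 for BCL2L11 in shARID1A.2, -0.019 to 0.021 for BID in shARID1A.4, -0.0082 to 0.020 for BCL2L11 between shARID1A and shARID1B, -0.022 to 0.0054 for BCL2L1 between shARID1A and shARID1A/B, and -0.015 to 0.011 for BID between shARID1A/B and shARID1B. Of all these values, BCL2L11 in shARID1A.2 with both scalings and BID in shARID1A.4 with the upper quartile (adjusted p = 0.0248) passed the test.

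Libraries with the same replicate number did not deviate together (63 pairs, correlations -0.088 to 0.053, 0 over 0.1), and 6 of 21 libraries correlated best with their own number, so the numbers do not pair the libraries. With the replicate number as a block, counts of members passing were 9, 9, 9, 9, 8 and 10 against Control, and 9 between the shARID1A conditions against 10, where BBC3 was lost (-0.26, adjusted p = 0.0509). That BBC3 difference (adjusted p = 0.0464) and the one between the shARID1B conditions (adjusted p = 0.0451) were also lost with no filter, with no trend, and without single libraries.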
